A study of Mus musculus with 48 samples.

Results

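The genes examined here are 42 genes at the proximal end of mouse chromosome 7, between the listed start of Myadm (3289038, mm10) and the listed end of Sbk3, a span of 1.68 Mb. They were taken from the expression table of cerebral cortex from APOE-targeted replacement (APOE-TR) mice, which lists 18943 genes, of which 15972 were above the column minimum in all 32 mice. Of the 60 genes listed in the range, 42 were above that minimum in every mouse and were kept as members. Another 7 were left out by symbol (Cacng6, Cacng7, Cacng8, Cox6b2, Ndufa3, Rpl28 and Rps9), and 11 were at the minimum in at least 1 mouse (Gm14548, Lilra5, Lilra6, Ncr1, Oscar, Pira1, Pira2, Pira6, Ptprh, Sbk2 and Tmem190). The range was chosen by the measured difference in these same 32 mice between those carrying human APOE4 (E4) and those carrying human APOE3 (E3), so every E4 minus E3 value below is a description and carries no test.

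APOE-TR mice carry a human APOE allele in place of mouse Apoe, on the background of C57BL/6J (B6) mice. The 32 APOE-TR mice fell into 8 groups of 4, by allele (E3 or E4), sex, and exposure to nPM, a nanosized subfraction of urban air particles, or to filtered air (control). They were 6 months old and were exposed for 5 h a day, 3 days a week, over 15 weeks. The 16 wild-type B6 mice, 4 for each sex and exposure, were 4 months old and were exposed on the same schedule for 8 weeks. Each allele is represented by its own mouse line, so the allele at Apoe and anything else by which the lines differ cannot be told apart. No genotype of the segment was measured here, and whether the lines differ in its sequence was not tested. Each mouse gave 1 cortex library, and nothing in the labels ties the mice to litters or cages.

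The segment holds the mouse counterpart of the human leukocyte receptor complex, with inhibitory and activating immunoglobulin-like receptors of immune cells (Pirb, the Pira genes, Lair1, Oscar). Beside them stand genes of unrelated function, such as the lipid acyltransferase Mboat7 and the troponin genes Tnnt1 and Tnni3. Mouse Apoe lies on the same chromosome at chr7:19696244-19699189, 14.7 Mb beyond the segment. Of the 42 members, 10 overlap another listed gene (Cnot3, Leng1 and Tmc4; Ttyh1 with 9430041J12Rik and D030047H15Rik; Eps8l1 with D630041G03Rik; Brsk1 with Tmem150b), so their reads may be shared.

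Values are the deposited CPM (read counts per gene relative to library size) rescaled to the same effective library size, called rescaled CPM below, and differences are on the log2(rescaled CPM + 0.5) scale, with standard errors (SE) from limma. In bulk cortex, fewer cells of a type and less RNA per cell cannot be told apart. Libraries held 17.8 to 31.3 M recovered reads, females (17.8 to 22.3 M) fewer than males (22.4 to 31.3 M). The 4 E3 female control libraries stood apart: their scaling factors were 0.860 to 0.999 against 0.948 to 1.03 in the other 28, and 8822 of 15972 genes (55.2%) passed a 5% false discovery rate (FDR) between E4 and E3 female controls, against 36 to 38 genes (0.225% to 0.238%) in each of the other 3 comparisons of E4 with E3. COX1, a mitochondrially encoded subunit of the respiratory chain and the gene with the highest value in every APOE-TR library, had 58785 and 47738 deposited CPM in E3 female controls 61 and 6, 27914 and 31684 in E3 female controls 52 and 63, and 35351 in E3 female nPM mouse 55, against 14848 to 24728 in the other 27 libraries. Cortical cell markers were above the minimum in every APOE-TR mouse, 7 of 7 for neurons, astrocytes, microglia and oligodendrocytes. The summed level of the microglial markers was 473 to 606 rescaled CPM in E3 female controls, 323 to 464 in the other E3 mice and 320 to 685 in E4 mice. That of the oligodendrocyte markers was 6941 to 9386, 4196 to 7286 and 4402 to 8198, and that of the neuronal markers 7275 to 9793, 7518 to 8803 and 6834 to 8612. The part of these shifts in the values below was not tested. Only some values are also given without the E3 female controls, so a pooled or sex difference given once may rest on them. Deposited Apoe values check only the split between APOE-TR and B6 mice: the mouse gene had 12.7 to 41.7 rescaled CPM in the 32 APOE-TR mice and 282 to 876 in the 16 B6 mice. They cannot check the labels of allele, sex or exposure.

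The promoters of 4 members are shown because they form the neighbouring pairs described first below, Eps8l1 with D630041G03Rik, which overlap on opposite strands, and Mboat7 with Tsen34, which are transcribed in opposite directions from nearby starts. Each is 300 bases, from 250 before to 50 after a RefSeq gene start on GRCm38.p6, written 5′ to 3′ on the gene's strand, and capitals mark GGGCGG or, where it lies on the opposite strand, its reverse complement. Eps8l1 has 3 listed windows, of which the one built on the deposited start is given, at chr7:4464485-4464784 (+). D630041G03Rik is at chr7:4470835-4471134 (−), Mboat7 at chr7:3692937-3693236 (−) and Tsen34 at chr7:3693360-3693659 (+), the first of its 2 windows. The Mboat7 window is not built on the deposited start of that gene, 3693526 on the minus strand, and lies inside the listed gene.
Eps8l1: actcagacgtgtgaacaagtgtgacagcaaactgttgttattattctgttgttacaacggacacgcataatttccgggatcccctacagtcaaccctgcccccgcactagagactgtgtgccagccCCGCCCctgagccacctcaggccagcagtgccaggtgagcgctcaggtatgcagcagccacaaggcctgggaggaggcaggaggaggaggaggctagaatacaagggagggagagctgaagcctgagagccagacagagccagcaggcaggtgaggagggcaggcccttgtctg
D630041G03Rik: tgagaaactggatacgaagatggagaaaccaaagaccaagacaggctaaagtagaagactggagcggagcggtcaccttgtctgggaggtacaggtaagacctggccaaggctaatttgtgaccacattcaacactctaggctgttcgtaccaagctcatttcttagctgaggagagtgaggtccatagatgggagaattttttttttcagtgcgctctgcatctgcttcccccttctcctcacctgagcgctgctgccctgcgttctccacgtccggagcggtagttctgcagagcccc
Mboat7: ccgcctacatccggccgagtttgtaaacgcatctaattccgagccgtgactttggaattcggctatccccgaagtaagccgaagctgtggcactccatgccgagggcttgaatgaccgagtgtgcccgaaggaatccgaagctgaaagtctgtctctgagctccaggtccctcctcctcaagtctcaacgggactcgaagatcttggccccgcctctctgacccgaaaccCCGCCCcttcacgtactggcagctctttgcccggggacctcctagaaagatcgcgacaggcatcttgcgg
Tsen34: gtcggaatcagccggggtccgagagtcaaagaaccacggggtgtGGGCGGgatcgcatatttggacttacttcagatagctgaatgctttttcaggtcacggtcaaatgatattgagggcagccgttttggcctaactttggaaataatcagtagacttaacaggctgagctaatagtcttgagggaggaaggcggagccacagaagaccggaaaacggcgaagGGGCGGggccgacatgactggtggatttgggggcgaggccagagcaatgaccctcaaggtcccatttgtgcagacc
The Eps8l1 and Mboat7 windows hold 1 GGGCGG each, the Tsen34 window holds 2 and the D630041G03Rik window holds none. None of these 4 windows holds TATAAA or CCAAT. RefSeq windows were found for 37 of the 42 members, 47 windows in all. GGGCGG on either strand stood in 66% of them, against 35.7% of all 32851 mouse windows of this length, and their median GC content was 58.3% against 52.7%. TATAAA stood in 10.6% against 13.6%, and CCAAT in 38.3% against 37.4%. These are matches of letters only. Rdh13 and Ssc5d had no entry.

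Rdh13 and Eps8l1 were the members in which the 16 E3 and 16 E4 mice did not overlap at all, Rdh13 being lower and Eps8l1 higher in E4. Across all fitted genes 28 did not overlap (0.175%). Rdh13 encodes a mitochondrial enzyme of the retinol dehydrogenase family. Its level in E3 mice ran from 28.9 through a median of 44.0 to 49.7 rescaled CPM (mean 41.95 ± 6.55, SD, n = 16). In E4 mice it ran from 22.6 through 26.4 to 28.6 (26.2 ± 1.49). The highest E4 mouse was below the lowest E3 mouse by a small margin, and that E3 mouse was female control 61. The pooled difference was −0.65 (SE 0.04) on the log2 scale. It was −0.69, −0.76 and −0.76 in nPM females, control males and nPM males, and −0.41 in control females.

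Eps8l1 encodes a relative of the EPS8 regulators of actin filaments. Its level was 0.215, 0.373 and 0.847 rescaled CPM (lowest, median and highest; mean 0.410 ± 0.164) in the 16 E3 mice. The 16 E4 mice had 1.03, 1.91 and 3.85 (2.12 ± 0.775). E3 mice had only 3 to 19 recovered reads and E4 mice 20 to 82, so each single value is imprecise, but no E3 mouse reached an E4 mouse. The pooled difference was 1.49 (SE 0.12), with 1.28 to 1.84 in the 4 sex and exposure groups. D630041G03Rik, an RNA gene that lies within Eps8l1 on the opposite strand, was also higher in E4. Its level was 0.322, 2.15 and 2.81 in E3 mice (1.89 ± 0.789) and 1.75, 4.41 and 6.81 in E4 mice (4.41 ± 1.31). The E3 and E4 mice overlapped, and the difference was 1.08 (SE 0.12). The library kit keeps strand, but whether the counting used it is not given in the sources used here, so reads of the pair cannot be assigned with certainty.

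Tmc4 and Mboat7, neighbours listed 12 kb apart, were both higher in E4. Tmc4 encodes a member of the transmembrane channel-like family. It had 0.161, 1.10 and 2.27 rescaled CPM (lowest, median and highest) in E3 mice and 1.75, 2.85 and 4.80 in E4 mice. The mice overlapped between 1.75 and 2.27, and the difference was 1.08 (SE 0.13). Mboat7, the acyltransferase that loads arachidonate onto lysophosphatidylinositol, was expressed far above it. It had 53.3, 86.5 and 107.4 in E3 mice (84.3 ± 14.7) and 105.9, 116.6 and 129.6 in E4 mice (116.6 ± 7.76). The overlap was narrow, and the difference was 0.49 (SE 0.06), or 0.30 to 0.43 in the 3 groups other than control females and 0.86 in those. Tsen34, which encodes a subunit of the tRNA splicing endonuclease and starts beside Mboat7, was lower in E4 by 0.25 (SE 0.05). Its E3 mice spanned 29.2 to 71.0 and its E4 mice 28.02 to 49.3, an extensive overlap. Of the 50-base runs of its longest transcript, 32.3% were also found in another gene, 4930526A20Rik, so its reads are uncertain.

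Tnnt1, the slow skeletal muscle troponin T, was low in all mice and higher in E4. Its level was 0.454, 0.726 and 1.97 rescaled CPM in E3 mice (0.786 ± 0.371) and 1.03, 1.25 and 1.71 in E4 mice (1.29 ± 0.180). The E3 mice at 1.97 and 1.07 were female controls 61 and 6. Without the 4 E3 female controls the 12 E3 and 16 E4 mice did not overlap, as in 33 genes (0.207%) of all fitted, and the difference was 0.60 in place of 0.51.

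Among the immune receptor genes, Pirb, an inhibitory receptor for MHC class I, was lower in E4. It had 0.299, 0.849 and 1.32 rescaled CPM in E3 mice (0.853 ± 0.248) and 0.175, 0.332 and 0.521 in E4 mice (0.333 ± 0.0887). These stand for 6 to 26 and 3 to 11 recovered reads, the groups overlapped, and the difference was −0.68 (SE 0.08). Pirb shared 37.3% of its 50-base runs with other genes, Gm14548 and Pira2 among them, so its reads may belong in part to these paralogs. Lilra6, Gm14548 and Pira1, which are no members because E4 mice reached the minimum, lay in the same direction at lower levels. Lilra6 averaged 0.251 rescaled CPM in E3 and 0.0649 in E4, where 10 of 16 mice were at the minimum. Gm14548 averaged 0.256 and 0.0724, and Pira1 0.206 and 0.0755. Lair1, an inhibitory receptor for collagen, differed by −0.17 and the cytokine gene Il11 by −0.03. Ssc5d, a soluble scavenger receptor, differed by 0.50 (SE 0.12), or by 0.34 without the E3 female controls.

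The genes with the largest differences of the range fell just outside the members. Oscar, an immunoglobulin-like receptor of osteoclasts and myeloid cells, was at the minimum in 1 of 32 mice (0 recovered reads). Its E3 mice had 0.0405 to 0.362 rescaled CPM and its E4 mice 1.41 to 3.48. Ptprh, a receptor-type tyrosine phosphatase, was likewise at the minimum in 1 mouse. Its E3 mice had 0.0537 to 0.440 and its E4 mice 1.98 to 2.94. For neither gene did the E3 and E4 mice overlap. Just inside the threshold, Tnni3 had 1 read in its lowest mouse, Tmc4 had 2, and Eps8l1 and Pirb had 3 each.

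**Figure D1:**
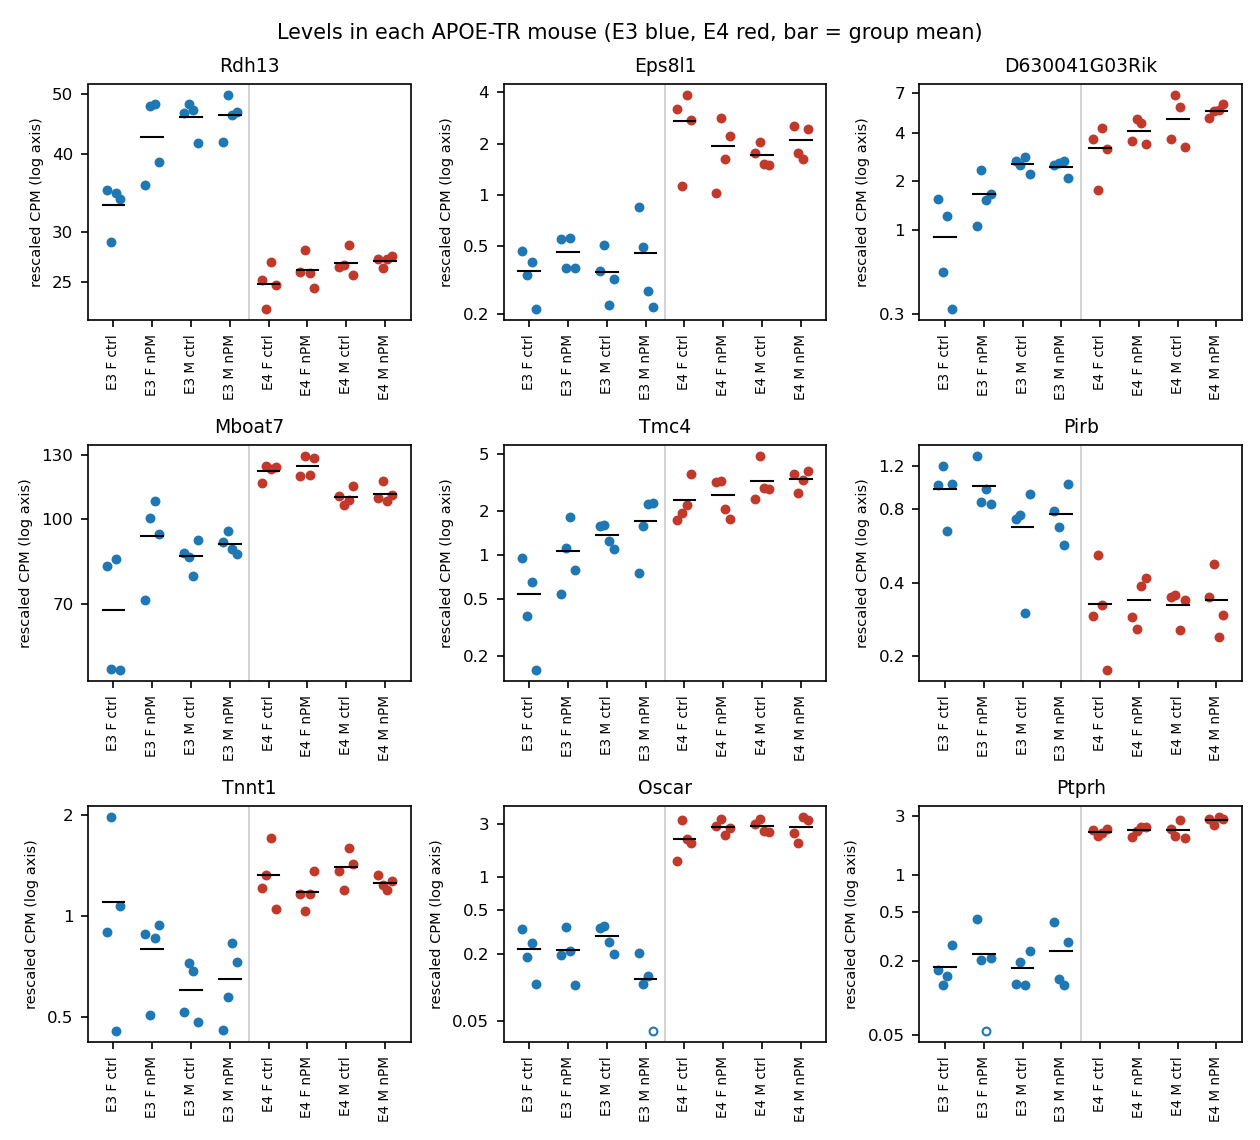
Rescaled CPM (log axes, scaled separately for each gene) in each of the 32 APOE-TR mice, 4 per group, for 7 members and for Oscar and Ptprh; bars are group means, blue is E3, red is E4, and open points are mice at the table's minimum. In Rdh13, Eps8l1, Oscar and Ptprh no E3 mouse overlaps an E4 mouse, while in Tmc4, D630041G03Rik and Pirb some do.

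The differences were not spread evenly along the segment, as the plot by position shows. Averaged over the 3 sex and exposure groups other than control females, 9 of 42 members differed by 0.3 or more in size, 6 higher and 3 lower in E4, and 23 lay within 0.1 of 0. These counts are of the contrast that chose the segment and were made for members only, with no share over all genes. Of the 9 members, Tmc4, Mboat7 and Pirb started 377 to 423 kb from the start of Myadm, and Rdh13, Eps8l1, D630041G03Rik and Tnnt1 started 1137 to 1216 kb from it. Oscar and Ptprh lie at 321 and 1260 kb. Within these 2 stretches, Tsen34 and Ppp1r12c had means of −0.19 and 0.05. Between the stretches, 7 members from Lair1 to Cdc42ep5 had means from −0.12 to 0.20, and the 17 members from Tnni3 to Nat14 had means from −0.09 to 0.12. Genes that are no members also differed between the stretches, Gm14548 (595 kb) by −0.43 and Lilra6 (619 kb) by −0.37. Pira1, Pira2, Lilra5, Pira6 and Ncr1 had means from −0.24 to −0.02 there. Before the first stretch, Cacng6 (136 kb) had −0.38, and Cacng7, Cacng8 and Ndufa3 had 0.08, 0.18 and 0.01. Ssc5d (0.34) and Sbk3 (−0.49) lie at the far end, at 1637 and 1676 kb. Immediately beyond it, Zfp579, Fiz1 and Zfp524 had means of 0.18, 0.08 and −0.02, and Nlrp12, the 1 gene listed before the segment, was at the minimum in some mice. The median size of the difference was 0.09 over the 42 members and 0.06 over all 15972 genes. The directions were mixed within both stretches, with Rdh13 lower 39.1 kb from Eps8l1 higher, and Mboat7 higher 34.7 kb from Pirb lower.

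**Figure D2:**
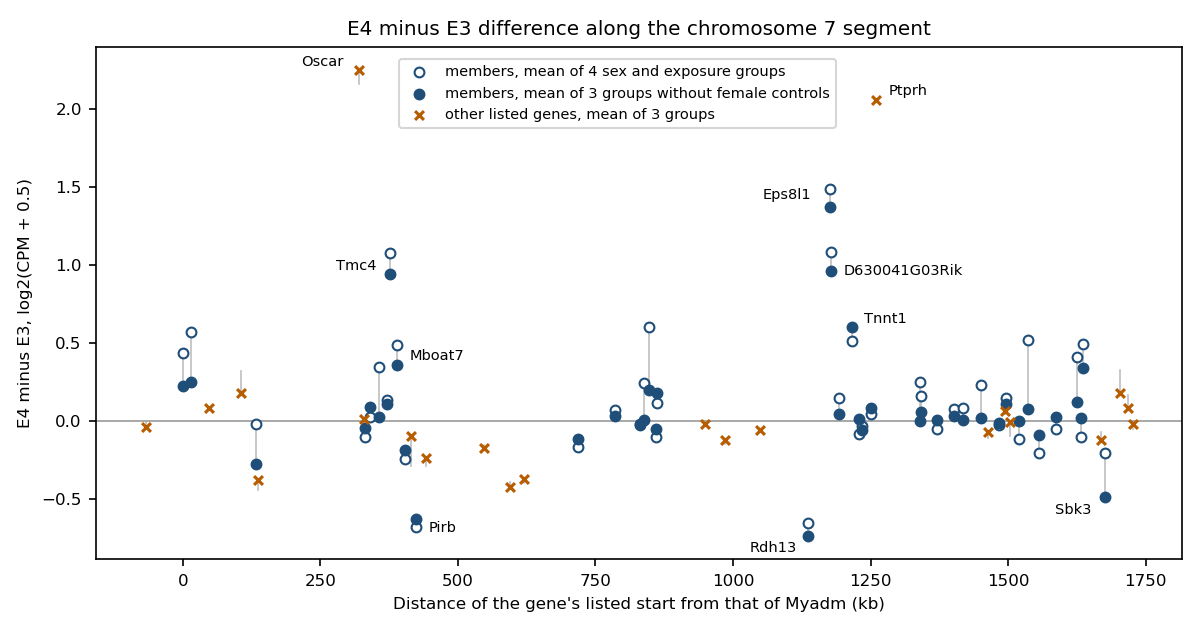
E4 minus E3 on the log2(rescaled CPM + 0.5) scale against the distance of each gene's listed start from that of Myadm (kb); open circles are the 42 members over all 4 sex and exposure groups, filled circles the same without control females, and crosses the other listed genes in and next to the segment. Without control females, Eps8l1, D630041G03Rik, Tmc4, Rdh13, Pirb and Tnnt1 lie farthest from 0, at 377 to 423 kb and 1137 to 1216 kb. Sbk3 (−0.49), at 1676 kb, lies farther from 0 than Mboat7 (0.36) at 389 kb. Oscar and Ptprh are the crosses farthest from 0.

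Counts of calls are given only beside those of all genes, since this contrast chose the segment. At 5% FDR over all 32 mice, 16 of 42 members were called, 12 higher and 4 lower in E4, against 28.9% of all genes (14.9% higher and 14% lower). Without the E3 female controls 9 were called, 5 higher (Eps8l1, D630041G03Rik, Tmc4, Tnnt1 and Mboat7) and 4 lower (Rdh13, Pirb, Sbk3 and Tsen34), against 2.18% of all genes (134 genes higher and 219 lower). The same direction in all 4 groups was shown by 17 members, 13 higher and 4 lower, against 25.2% of all genes (13.1% higher and 12% lower).

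Other members had a pooled difference that was much smaller without the E3 female controls, among which mouse 61 and mouse 6 were lowest. Leng8, a gene of the leukocyte receptor cluster, had 17.98 and 38.6 rescaled CPM in these and 169 and 105 in the other E3 female controls (52 and 63), against 111 to 289 in the other 12 E3 mice. Shisa7, an auxiliary subunit of synaptic receptors, had 12.96 and 20.9 in the same mice and 133 and 105 in the other E3 female controls, against 71.2 to 265 in the other 12 E3 mice. Both genes were lowest in libraries 61 and 6, which had the highest COX1, and among the other 12 E3 mice both were lowest in female nPM mouse 55, whose COX1 was next highest (35351). In the 16 E4 mice Leng8 had 160 to 301 and Shisa7 136 to 239. The part of these library differences in the values was not tested. The pooled differences of Leng8 and Shisa7 were 0.60 and 0.52, and without the E3 female controls they were 0.19 and 0.08. Likewise Myadm went from 0.43 to 0.22, the zinc finger gene Zfp628 from 0.41 to 0.12, and Cnot3, a subunit of the deadenylase complex that shortens mRNA tails, from 0.34 to 0.02. In males alone Shisa7 and Cnot3 turned to −0.11 and −0.07.

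**Figure D3:**
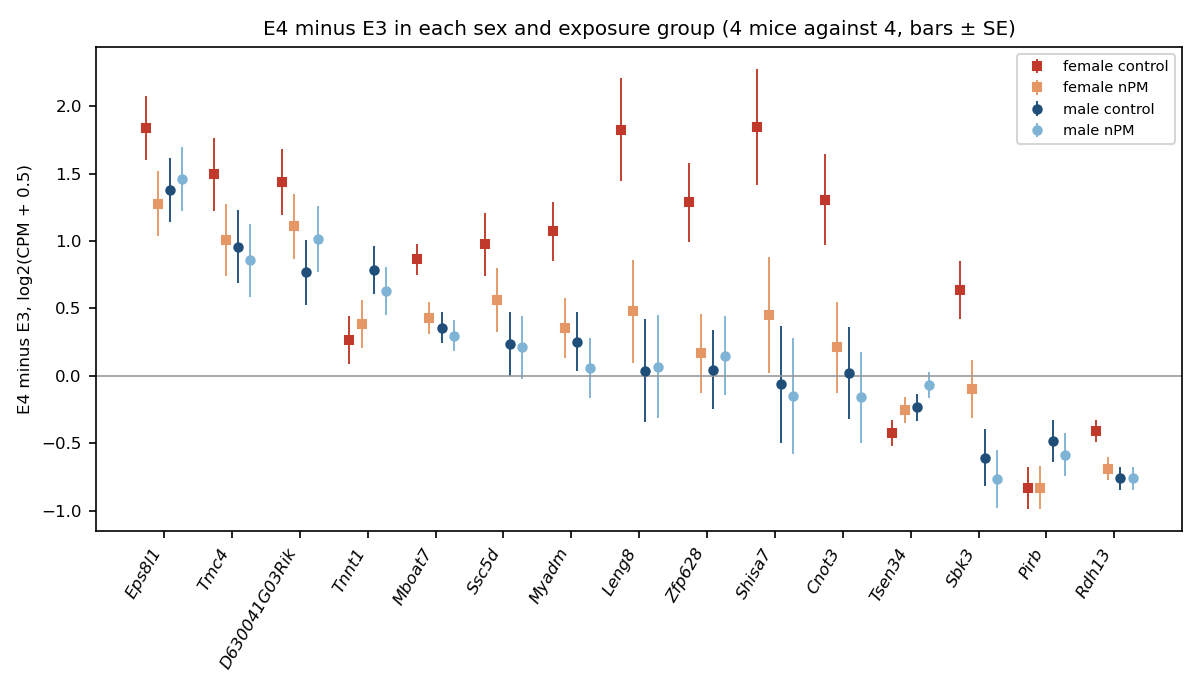
E4 minus E3 on the log2(rescaled CPM + 0.5) scale, with SE bars, for 15 members in each of the 4 sex and exposure groups (4 against 4 mice each). Eps8l1, Tmc4 and D630041G03Rik are high in all 4 groups and Rdh13 and Pirb low in all 4, while Leng8, Shisa7, Zfp628 and Cnot3 are at 1.29 to 1.84 in control females, 0.17 to 0.48 in nPM females and −0.16 to 0.15 in males.

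In the control females the E4 minus E3 difference of the members went with transcript length. Over the 40 members with an annotated transcript, the correlation with the length of the longest one was r = 0.40 and rho = 0.37 in control females, 0.23 and 0.32 in nPM females, −0.06 and −0.05 in control males, and −0.06 and −0.09 in nPM males. These are correlations across genes measured in the same libraries and carry no test. The median difference in control females was 0.55 over the 20 members with longer transcripts and −0.07 over the 20 with shorter ones. In nPM females the medians were 0.11 and −0.05, in control males 0.03 and 0.02, and in nPM males 0.03 and 0.05. Nat14, among the shorter 20, lay below 0 in control females (−0.48), and Leng8 and Shisa7, the members of the longer 20 with the largest differences besides Eps8l1, lay at 1.82 and 1.84. The relation was computed for members only and not over all genes, so it cannot be called particular to the segment. Its source was not tested.

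**Figure D4:**
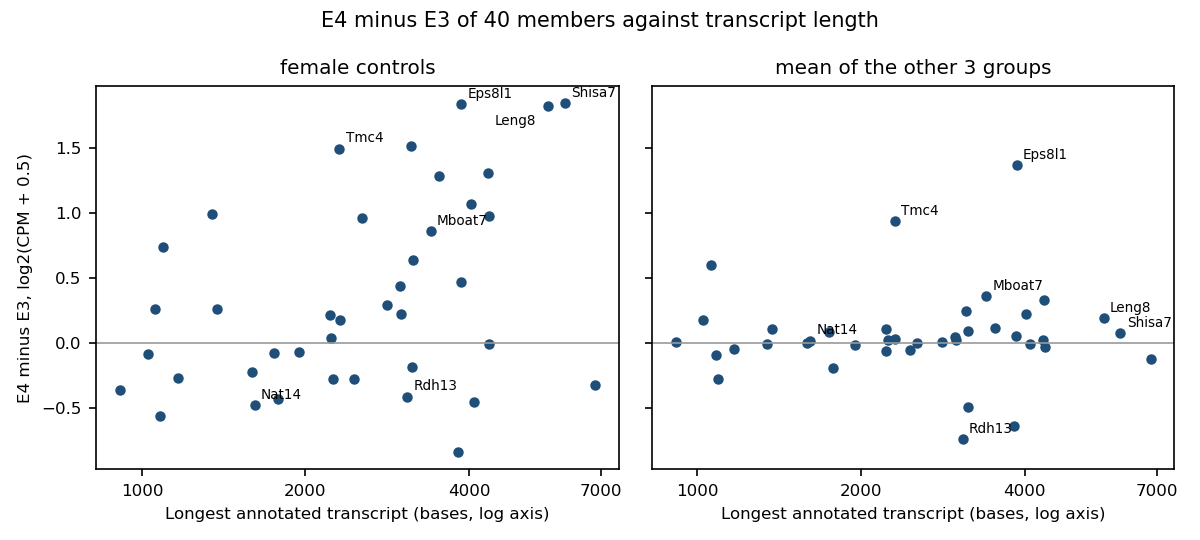
E4 minus E3 on the log2(rescaled CPM + 0.5) scale against the length of the longest annotated transcript (bases, log axis) for 40 members, in control females (left) and as the mean of the other 3 groups (right). The correlation with length is r = 0.40 and rho = 0.37 on the left and 0.04 and 0.14 on the right, where nPM females are averaged with males and Eps8l1, Tmc4 and Rdh13 still stand away from 0.

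Whether the allele difference changed with sex was tested in limma as the difference of differences, which the choice of the segment did not use. At 5% FDR, 8 of 42 members were called, 5 with a larger value in females and 3 with a smaller one, against 20.4% of all genes (9.82% and 10.6%). Sbk3, of the SH3-binding domain kinase family, had the smallest p of these, with 0.96 (SE 0.21, Benjamini-Hochberg adjusted p = 0.0361). Its means were 1.16 ± 0.781 in E3 and 1.88 ± 0.226 in E4 control females (n = 4 each), and 2.83 ± 0.237 and 1.69 ± 0.181 in control males, so E4 was above E3 in the former and below it in the latter. In nPM mice they were 2.52 ± 0.865 and 2.22 ± 0.207 in females and 3.62 ± 0.451 and 1.92 ± 0.254 in males, so E4 was above E3 in control females alone among the 4 groups. The others were D030047H15Rik (0.75), Shisa7 (1.25), Leng8 (1.10) and Tmem86b (0.71), and, below 0, Isoc2b (−0.45), Ube2s (−0.35) and Nat14 (−0.30). Tmem86b encodes an enzyme that cleaves lysoplasmalogens, and Ube2s a ubiquitin-conjugating enzyme of the anaphase-promoting complex. Without the E3 female controls none of 16161 genes was called, with 4 members and 8.92% of genes at an unadjusted p under 0.05 and a smallest member adjusted p of 0.547. Leaving out 1 mouse at a time gave from 0 to 22 members, beside 0% to 42.7% of all genes, and 0 members in 14 of 32 cases. For the interaction of allele with exposure, limma called no gene, with 7 members and 10.5% of genes at an unadjusted p under 0.05, and edgeR and DESeq2 on recovered reads called no member (DESeq2 called 1 gene in all).

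For exposure to nPM, the question of the study, no member passed 5% FDR. Over the 32 APOE-TR mice limma, edgeR and DESeq2 called no gene, although in limma 16 of 42 members and 28.5% of all genes had an unadjusted p under 0.05. The differences of the members ran from −0.20 (Lair1) to 0.56 (Shisa7), and their smallest adjusted p was 0.147. Without the E3 female controls the differences ran from −0.13 to 0.22, 1 member and 2.99% of genes had an unadjusted p under 0.05, and the smallest adjusted p was 0.966. The count of members called was 0 over all 32 mice, but it rested on single mice. Without E3 female control 52 it was 17 members beside 28.9% of all genes, without E3 female control 63 it was 7 beside 11% and without E3 female nPM mouse 55 it was 10 beside 17.2%. Within each allele and sex, no member passed an unadjusted p of 0.005, the threshold used by the study, in any of the 4 groups of 8 mice, against 0.677% of genes in E3 females, 0.26% in E4 females, 0.16% in E3 males and 0.184% in E4 males. This rested on the fit: summed over the 4 groups it was 17 member calls beside 7.92% of all gene tests with 1 spread shared over the 8 groups, 1 beside 0.954% with DESeq2, 2 beside 0.572% without E3 female control 52, and 1 beside 0.602% without E3 female nPM mouse 55. In B6 mice no member of 28 was called over both sexes, with 2 at an unadjusted p under 0.05 against 6.04% of genes and differences from −0.36 to 0.71. In B6 females Isoc2b, an isochorismatase-domain gene, passed the unadjusted threshold of 0.005 with a difference of 1.35 (SE 0.37), against 1.21% of genes. Its adjusted p by limma was 0.399, and it did not pass without B6 female nPM mouse 52. In B6 males no member passed, against 0.233% of genes.

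Sex was the factor with the most calls. Over the 32 APOE-TR mice 31 of 42 members were called, 17 higher and 14 lower in females, against 62.8% of all genes (30.8% higher and 31.9% lower). Without the E3 female controls it was 25 of 42, 17 higher and 8 lower, against 50% (24.9% and 25.1%). Hspbp1, which encodes a co-chaperone that releases nucleotide from Hsp70, differed most clearly, by 0.90 (SE 0.06, adjusted p = 1.98e-12). Its 16 females spanned 51.1 to 75.5 rescaled CPM and its 16 males 21.5 to 38.7, so the sexes did not overlap. Nat14, of the acetyltransferase family, was higher in females by 0.62 (SE 0.04) and Tsen34 by 0.60 (SE 0.05). The sexes did not overlap in Nat14 (59.8 to 101 and 40.5 to 52.2) or Tsen34 (42.1 to 71.0 and 28.02 to 39.3) either. The share of all genes without overlap of the sexes was not counted. Tmem150b (0.53) and Syt5 (0.26), a synaptotagmin of secretory vesicles, followed. Lower in females were Myadm (−0.63), D630041G03Rik (−0.66), D030047H15Rik (−0.53), 9430041J12Rik (−0.39) and Tmem86b (−0.55). The differences of single genes here include the E3 female controls and are not given without them. Males were sequenced more deeply than females without overlap, so sex and depth cannot be told apart here.

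In B6 mice 8 of 28 members were called between the sexes at 5% FDR, 3 higher and 5 lower in females, against 26.6% of genes (13.4% higher and 13.2% lower), with 4 to 9 when 1 mouse was left out (4 without B6 male nPM mouse 10). Higher were 3300002P13Rik (0.86), Tmem150b (0.82) and Myadm (0.66), and among the lower were Leng8 (−1.51), Hspbp1 (−1.49), Zfp628 (−0.86) and Ppp1r12c (−0.54). The counts by sign that follow were made for members only, with no share over all genes. They cannot be read as particular to the segment. Of the 28 members, 17 had opposite signs in the tables. Of the 6 called in both tables, 4 lay in the same direction, among them Tmem150b, Leng8 and Ppp1r12c, while Hspbp1 and Myadm lay in opposite directions. Hspbp1 in B6 mice ran from 5.16 to 32.7 in 8 females and from 37.0 to 88.1 in 8 males. These again did not overlap but in the reverse order, with no count of such genes over the whole B6 table. The difference between the tables was not tested, since they were normalized separately and differ in age, exposure length and year.

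**Figure D5:**
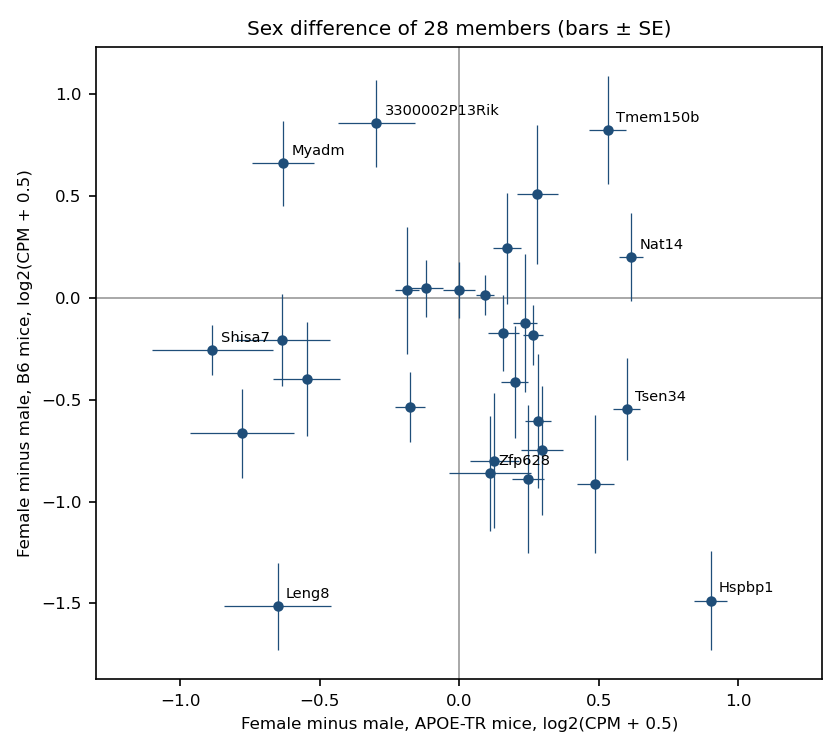
Female minus male difference on the log2(rescaled CPM + 0.5) scale for the 28 members fitted in both tables, in the 32 APOE-TR mice (x axis) and the 16 B6 mice (y axis), with SE bars. Tmem150b is above 0 in both, Leng8 below 0 in both, and Hspbp1 and Myadm have opposite signs.

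The B6 table sets a wild-type level beside the lines, without a test because of the separate normalization. Of the 42 members 40 have a symbol in it (not D630041G03Rik and Suv420h2), and 28 were above its minimum in all 16 mice. The B6 minus E3 difference had a median of −0.54 over these 28 members and −0.51 over all 11097 genes fitted in both tables, whose central 90% ran from −1.71 to 0.77. The B6 mean was nearer that of E3 in 12 members and nearer that of E4 in 16, with no such count over all genes. Where B6 lay below both lines, it was nearer whichever allele was lower. These counts therefore do not place B6 with either line. Rdh13 had 3.63 to 19.7 rescaled CPM in B6 mice (11.7 ± 4.68, n = 16), below both lines and nearer E4. Mboat7 had 72.96 to 133 (97.8 ± 16.7), between the means of E3 and E4, and Tnnt1 had 0.877 to 12.98 (3.87 ± 3.02), above both. Eps8l1 was at the minimum in 1 B6 mouse and averaged 3.42 ± 2.34, above both lines. Tmc4 was at the minimum in 5 B6 mice, and B6 female controls 40 and 42 lay barely above it (0.0446 and 0.0747). Its mean of 0.726 ± 0.585, below both lines, includes these values at or near the minimum. Pirb was at the minimum in 7 and averaged 0.677 ± 1.28. The order of B6, E3 and E4 therefore differed from member to member, with B6 beyond E4 in Eps8l1 and Tnnt1 and on the E3 side in Tmc4. These orders include the offset between the tables. Among the B6 minus E3 differences of all 11097 genes, Eps8l1 and Tnnt1 lay at percentiles 98.9 and 98.4. Mboat7 lay at 85.9 and Rdh13 at 3.45. Tmc4 lay at 49.3, near the median of all genes, so its place below E3 cannot be told from the offset.

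By role, the 9 members called without the E3 female controls, in the contrast that chose the segment and beside 2.18% of all genes, fell in different groups, with no test by role. They were 1 of 5 RNA processing genes (Tsen34, lower), 2 of 6 lipid and small molecule enzymes (Mboat7 higher, Rdh13 lower), 1 of 3 muscle and cilium genes (Tnnt1), 1 of 4 immune genes (Pirb), 1 of 2 actin and small GTPase effectors (Eps8l1), 1 of 4 other membrane proteins (Tmc4) and 1 of 5 kinase and phosphatase genes (Sbk3). None of 3 transcription and chromatin genes, 2 ubiquitin and chaperone genes and 4 synaptic and neuronal membrane genes was among them. The remaining called member, D630041G03Rik, is in no list.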

How the data were processed

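Cerebral cortex RNA of 48 mice was measured by mRNA sequencing (TruSeq Stranded). Per the labels, the authors aligned reads with TopHat2 2.0.8b to mm10 (GRCm38) and quantified genes in Partek; the deposited values are CPM, whose column sums were 670537 to 880614 in the APOE-TR table and 526602 to 667150 in the B6 table, and the scaling step is not given in the sources used here. In the APOE-TR table, 93.9% to 94.8% of low values in a column (under 20 steps) were whole multiples of 1 read within 0.02, so reads were recovered for depth and for count models used as alternatives. In the B6 table the share was 69.4% to 85.5% and no reads were recovered. A count test had been planned if counts were deposited; as CPM were, limma 3.58.1 (R 4.3.3) was fitted with a mean-variance trend to log2(CPM + 0.5) after TMM rescaling (edgeR 4.0.16), on the 15972 genes above the column minimum in all 32 APOE-TR mice (8 groups) and 13916 in all 16 B6 mice (4 groups), with Benjamini-Hochberg adjustment and a 5% FDR. nPM was also tested in each sex and genotype alone (8 mice, unadjusted p under 0.005). TMM factors were 0.860 to 1.03 (APOE-TR) and 0.884 to 1.11 (B6). Entries with repeated symbols, 4 per table, were left out. P-values measure the spread between these mice only.

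The members, gene lists and tests were chosen with earlier results of these data known. The text names members with a pooled E4 minus E3 of at least 0.3 (up to 12 a direction), members called in a contrast not used for the choice (up to 5 a direction), neighbouring genes and Apoe. Other genes (Tsen34, Sbk3, Oscar, Ptprh, the Pira relatives, Lair1, Il11 and the members called without the E3 female controls) were added after their values were seen. The results of 1 member are counted but not reported by name here. One E3 female control column, numbered 6, matched its group but no single sample title, and 1 sample with that group's labels had no column of its own name. Promoter windows are from RefSeq (GRCm38.p6), and transcripts from GENCODE mouse release 21 on that build. Alternatives were other pseudocounts (0.1 and 2), no TMM, other filters, voom, edgeR and DESeq2 1.42.0 on recovered reads, subsets of mice, other models, and leaving out each mouse. On simulated data for the pooled contrast (15838 genes, log2 difference 1.5), the fit recovered 191 of 191 tested changed genes and called 15 unchanged ones. Figures were drawn with matplotlib 3.10.9.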

Additional observations from a re-analysis of the deposited data

Results flagged for a closer look

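Within the groups of 4 mice of the 14 named members, 112 groups in all, 4 had 1 mouse far from the other 3 by Dixon's criterion; chance gives about 1 in 20, or 5.6 here. Tnnt1 was 0.506 rescaled CPM in E3 female nPM mouse 59, against 0.860 to 0.943 in the others of its group. Mboat7 was 116.2 in E4 female control 7, against 122.9 to 124.3. Pirb was 0.255 in E4 male control 32, against 0.341 to 0.355. Rdh13 was 28.9 in E3 female control 61, against 33.98 to 35.1.

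The E4 minus E3 difference of 8 of 42 members, against 20.4% of all genes, differed between females and males by limma at 5% FDR, in log2 units, females minus males: D030047H15Rik 0.75, Leng8 1.10, Sbk3 0.96, Shisa7 1.25 and Tmem86b 0.71, and in the other direction Isoc2b −0.45, Nat14 −0.30 and Ube2s −0.35. None of the 8 passed without the 4 E3 female controls, where no gene did.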

How the results depend on the processing

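Counts are of members, each beside the share of all genes called in the same fit. The pooled E4 minus E3 calls, 16 (28.9%), were 8 in males only (1.71%), 9 in control mice only (5.34%), 7 in nPM mice only (1.01%), 9 without the 4 E3 female controls (2.18%), 10 with additive terms for sex, genotype and exposure over 32 mice (5.95%) and 2 with such terms over 48 mice (0.387%). They ranged from 11 to 25 when 1 mouse was left out (25 and 45% without E3 female control 52, 24 and 39.7% without 63, 11 and 16.9% without 6, 11 and 16.1% without E3 female nPM mouse 55). The 17 members with 1 direction in all groups (25.2%) were 11 when at least 10 estimated reads were required in every mouse (25.9%), and 14 to 19 with 1 mouse left out (22.5% to 26.4%). In males only Shisa7 was −0.11 and Cnot3 −0.0704. The allele by sex calls, 8 (20.4%), were 4 with no filter on low values (12.4%), 0 without the E3 female controls (0%) and 0 to 22 with 1 mouse left out (0% to 42.7%; 22 without E3 female control 52, 21 without 63). The allele by exposure calls were 0 in each of these. For nPM the APOE-TR calls were 0 to 17 with 1 mouse left out (17 and 28.9% without E3 female control 52, 7 and 11% without 63, 10 and 17.2% without E3 female nPM mouse 55) and the B6 calls 0. In single sex and genotype groups, the APOE-TR calls (0, beside 0.318% of gene tests) were 1 with DESeq2 (0.954%), 17 with 1 spread shared over the groups (7.92%), and 0 to 2 with 1 mouse left out (2 and 0.572% without E3 female control 52). The B6 calls (1, 0.711%) were 3 with no TMM (1.09%) and 0 with at least 10 estimated reads (0.805%), and 0 to 1 with 1 mouse left out. The sex calls in APOE-TR mice, 31 (62.8%), were 31 to 35 with 1 mouse left out (60.5% to 66.5%), 25 with at least 10 estimated reads in every mouse (67.3%) and 25 without the E3 female controls (50%). In B6 mice they were 8 (26.6%), 5 with no filter (9.15%) and 4 to 9 with 1 mouse left out (4 and 20.9% without male nPM mouse 10, 5 and 21.4% without female control 40). The causes were not tested. The fits without the E3 female controls for sex, nPM and the interactions, and the 32-mouse additive fit, were chosen after seeing the data. edgeR and DESeq2 were not run on the B6 table. No paired analysis was possible because each mouse gave 1 library in 1 group, and no label pairs mice across groups. Depth limits the low members, since Eps8l1 had 3 to 19 reads in E3 mice and Pirb 3 to 11 in E4 mice.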
